A study of Mus musculus with 9 samples.

Results

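The inflammatory and regulatory cytokines examined here are 10 genes, namely Tnf, Il6, Il1a, Il10, Il12b, Il15, Il27, Il1rn, Tgfb1 and Tnfsf13b, out of 46072 genes in the deposited tables. They were chosen by name, as secreted or membrane-bound mediators that a monocyte can make, by a rule that uses no measured value, although earlier results of these data were known when it was written. Each of the 10 had 1 row in both the count table and the table of FPKM, and each had a count above 0 in all 9 libraries. Of these 10 genes, DESeq2 called Il1a lower in monocytes of vancomycin-treated mice than of control mice, where 4.34% of all tested genes were called. The same test called Il1a and Tgfb1 lower in mice that had received both vancomycin and the lipid L654, where 6.67% of genes were called. None of the 10 was called different between the vancomycin groups with and without the lipid, where 9.86% of genes were. Called means an adjusted p no higher than 0.05. The edgeR test called 0 of the 10 in each contrast, and the calls depended on the fit, as described below.

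Cytokines of monocytes are mostly induced through pattern recognition receptors, which start transcription through NF-kB and related factors. Tnf, Il6, Il1a and Il12b promote inflammation, whereas Il10, Il1rn and Tgfb1 restrain it, and Il15, Il27 and Tnfsf13b act largely on lymphocytes. The messenger RNA of many such genes is kept short-lived by AU-rich elements in the 3′ UTR, which are bound by decay proteins such as tristetraprolin. Several of the proteins need a further step before they act, such as cleavage by a protease, a partner chain or release from a latent complex.

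The 9 libraries came from splenic monocytes of 9 female C57BL/6 mice aged 8 to 10 weeks, 3 mice per group, and the cells were enriched by magnetic negative selection and were not stimulated in culture. Con mice received water by gavage for 6 days. Van mice received vancomycin by gavage, an antibiotic that acts on Gram-positive bacteria and is little absorbed by the intestine, at a daily 2 mg per mouse over the same 6 days, and VanLip mice received the same vancomycin and then L654, a TLR2 ligand produced by Bacteroidota, by retro-orbital injection on days 7, 9 and 11. All groups were rested without antibiotic before the spleens were taken, for 6 to 8 days by the labels and methods. The study's account of the sequenced mice gives 8 days. The methods describe PBS injections as vehicle control and 2 doses of L654 for the injection experiments, but neither they nor the labels say which dose the sequenced VanLip mice received or whether the sequenced Con and Van mice received PBS. If they did not, an effect of the lipid and an effect of the injection cannot be told apart.

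Total expected counts, which are estimated from transcript coverage and need not be whole, ranged from 43070361 to 61383806 over the 6 libraries of Con and Van mice, and from 170503470 to 184720704 over the 3 of VanLip mice. Divided by the commonest low count, taken as 1 read, these were 32303578 to 46039006 and 85251735 to 92360352 reads. The commonest low count, which in such estimates depends on the length of 1 read, was 1.33 in the libraries of Con and Van mice but 2 in those of VanLip mice, although the labels and methods state reads of 100 bases for all libraries. The program tximport, which made these counts, assumes reads of 75 bases by default, and whether the default was used is not given. Whether read length differed is therefore not settled, and whether the VanLip libraries shared a sequencing run with the others is not given in the sources used here. Neither depth nor the count of 1 read can be told apart from the VanLip group in any contrast that uses it. The labelled cell type was present by its markers: all 13 monocyte markers were above 0 in every library, with a summed FPKM of 11900 to 12500 in Con, 10900 to 12500 in Van and 12200 to 13700 in VanLip. Summed B cell, T cell, NK cell, neutrophil and platelet markers were each at most 22.2 FPKM in any library, and Ly6g, a defining marker of neutrophils, was at 0 in all. Of the other cell types, dendritic cell markers summed to 85 to 122 FPKM, and red pulp macrophage markers to 1090 to 1330 in Con, 1340 to 1710 in Van and 1050 to 1440 in VanLip, so that the Con and Van ranges did not overlap. The sum of 6 erythroid markers was lower in every Con library, at 99.6 to 202 FPKM, than in any Van or VanLip library, at 343 to 772 and 278 to 1160, and the latter groups overlapped.

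The 3′ UTR sites below carry the AU-rich nonamer, TTATTTATT, and are shown because this element is found in many short-lived cytokine transcripts. They are given 5′ to 3′ on the strand of the gene, with the nonamer, or overlapping nonamers, in capitals, from 1 GENCODE M21 transcript per gene on GRCm38.
Tnf, chr17:35199674-35199703, minus strand: ttaTTATTTATTTATTATTTATTTATTtgc
Il27, chr7:126589078-126589107, minus strand: ttcttggatatTTATTTATTtttaagaaat
Tnfsf13b, chr8:10037073-10037102, plus strand: cattggcccatTTATTTATTgaattgtttg

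The 3′ UTR of Tnf held 5 nonamers in 764 bases, of which 4 lie in the site shown, that of Il27 held 2 in 285 bases and that of Tnfsf13b held 1 in 3631 bases. The other 7 cytokines held none. Among 21022 3′ UTRs of the annotation, 7.19% held at least 1 nonamer and 0.599% held at least 3. The shorter pentamer ATTTA, which lies within every nonamer, was present in 9 of the 10, with 8 copies in Tnf, 6 each in Il6, Il10, Il12b and Tnfsf13b, 5 in Il27, 3 in Il1a and 1 each in Il15 and Tgfb1, against 62.9% of all 3′ UTRs. Il1rn, at 1864 bases, held neither. A match describes the letters only and not a site in use.

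Promoters from 250 bases before to 50 bases after the start site were taken from RefSeq on GRCm38.p6, which gave 10 windows for 7 of the cytokines. They were searched on both strands for the NF-kB consensus, the factor downstream of TLR2. It was found in Il6 and in Tgfb1, and in 8.46% of all 32851 promoters of this length. The matches are shown in capitals on the strand of the gene. That of Il6 begins 44 bases before the start site and that of Tgfb1 140 bases before it, where the same letters match on both strands.
Il6, chr5:30013060-30013089, plus strand: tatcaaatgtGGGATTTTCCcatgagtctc
Tgfb1, chr7:25686852-25686881, plus strand: cagggctgaaGGGACCCCCCttggagcccg

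Levels of the 10 cytokines spanned more than 2 orders of magnitude. On the scale of FPKM, which is corrected for transcript length and library size, Tgfb1 was by far the highest in Con mice, at 270 ± 2.44 (SD, n = 3), above 99.1% of the 26108 detected genes. Il1rn at 12.1 ± 2.53 and Il27 at 10.4 ± 1.04 FPKM followed, with overlapping ranges over the 3 Con mice, and Il15 at 8.70 ± 0.574, whose highest value of 9.18 was just below the lowest of Il27, 9.45. Below these, Tnf stood at 5.33 ± 1.45, Il1a at 4.03 ± 0.431 and Tnfsf13b at 3.92 ± 0.750 FPKM, again with overlapping ranges. Il12b at 1.66 ± 0.352 and Il10 at 1.32 ± 0.426 FPKM overlapped, and Il6 was the lowest at 0.642 ± 0.214, with a lower FPKM in 51.4% of detected genes. The highest Il6 value among Con mice, 0.876 FPKM, was just above the lowest Il10 value, 0.854.

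**Figure D1:**
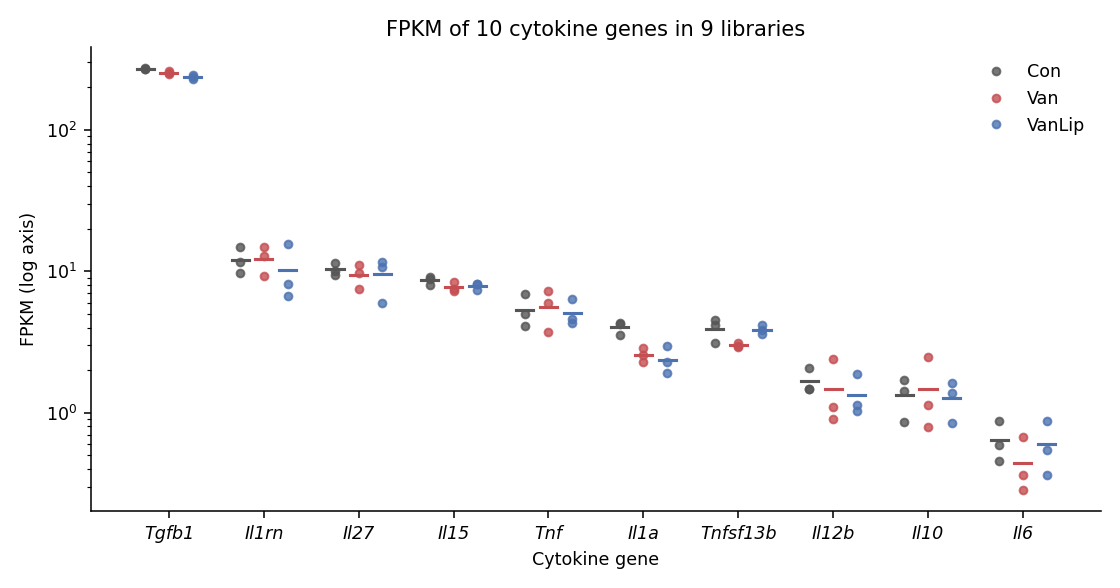
FPKM on a log axis for the 10 cytokine genes, ordered by their mean in Con, with 1 point per library and a bar at the group mean (n = 3 mice per group). Tgfb1 lies at 230 to 272 FPKM in all 9 libraries, above every value of the other 9 genes, and Il6 lies at 0.283 to 0.879 FPKM.

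Differences between groups were tested with DESeq2 on the expected counts of all genes, with p-values adjusted over the 18516, 16552 and 18025 genes that passed its filter on low counts in Van against Con, VanLip against Con and VanLip against Van, and called means an adjusted p no higher than 0.05. Values per library are normalized counts, which are corrected for library size only and are compared between groups and not between genes. Vancomycin alone called 1 of the 10 cytokines against Con, Il1a, where 4.34% of all tested genes were called, including 2.06% that were lower. Vancomycin with L654 called 2 against Con, Il1a and Tgfb1, both lower, where the background was 6.67%, including 3.69% that were lower. VanLip against Van called 0 of 10, with a background of 9.86%, while 2 had an unadjusted p under 0.05 (Tgfb1 and Tnfsf13b). The edgeR test called 0 of the 10 in each of the 3 contrasts, where it called just 189, 289 and 727 of 25441 genes. The median log2 fold change of the 10 was -0.16, -0.18 and -0.11 in the same order, beside medians over all genes of -0.01, 0.01 and 0.01. These medians depended on single libraries. Without 1 library they ranged from -0.349 to 0.00472 in Van against Con and from -0.269 to -0.0375 in VanLip against Con. In VanLip against Van the range was -0.188 to 0.0823. Because the contrasts share the Con, Van or VanLip libraries pairwise, they are not separate pieces of evidence.

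**Figure D2:**
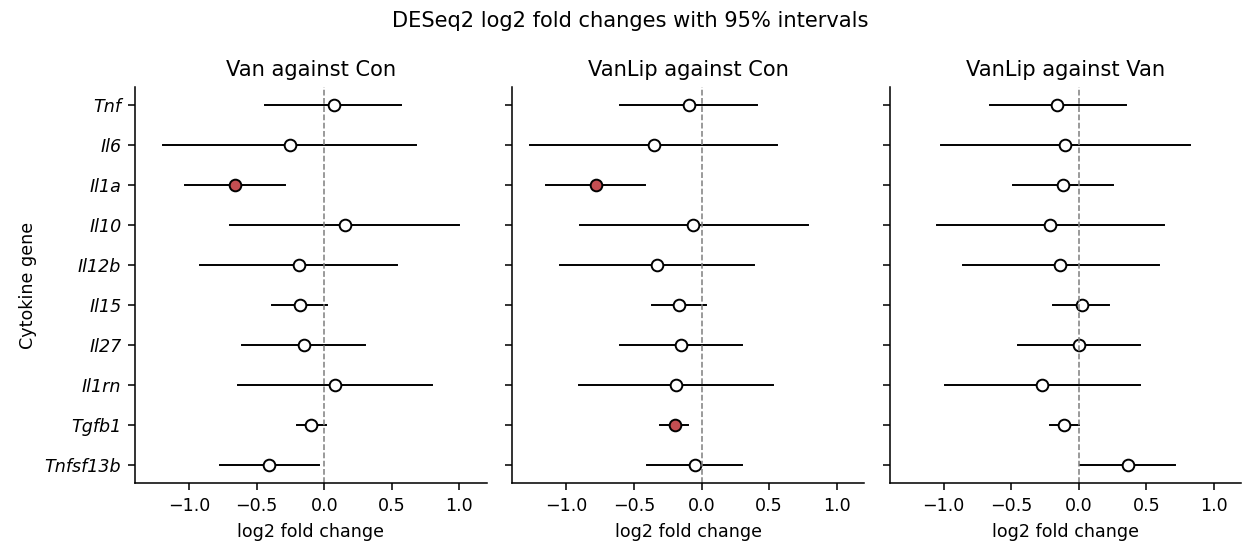
DESeq2 log2 fold changes of the 10 cytokine genes in the 3 contrasts, as points with 95% intervals (3 libraries per group); filled points are called. Il1a is filled in both contrasts against Con, at -0.66 and -0.78, Tgfb1 in VanLip against Con at -0.20, and no point is filled in VanLip against Van.

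Il1a encodes IL-1 alpha, an alarmin that is active as the precursor and signals through the same receptor as IL-1 beta. The gene (ENSMUSG00000027399) lies at chr2:129299610-129309972 on the minus strand and overlaps the processed transcript Gm14023 on the opposite strand. Normalized counts were 674.8, 820.6 and 790.6 in the Con mice, 548.2, 469.1 and 428 in the Van mice, and 428.6, 350.9 and 547.3 in the VanLip mice. Every Con mouse was above every Van and every VanLip mouse, and the latter groups overlapped. Il1a fell by 0.66 on the log2 scale in Van against Con (SE 0.19, fold 0.633, DESeq2 adjusted p = 0.0186), and by 0.78 in VanLip against Con (SE 0.19, fold 0.581, adjusted p = 0.00142). VanLip against Van was -0.12, with a 95% interval from -0.49 to 0.25 (adjusted p = 0.803), so that a return towards the Con level larger than 0.25 lies outside the interval.

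The Il1a call in Van against Con depended on the fit and on single libraries, although its sign did not. The adjusted p was 0.126 with edgeR and 0.112 to 0.245 in the limma fits on log2 FPKM, and in DESeq2 it was 0.113 and 0.115 when Con replicate 2 or 3 was left out, and 0.115 and 0.143 when Van replicate 2 or 3 was. In VanLip against Con the call held without any 1 library, while edgeR gave an adjusted p of 0.0613 and limma gave 0.0989 with a pseudocount of 1 and 0.115 with a pseudocount of 0.1. Among the cell type markers, erythroid genes moved with both contrasts: 5 of 6 were called higher in Van and 6 of 6 in VanLip. Of 7 dendritic cell markers, 3 were called lower in Van and 2 in VanLip. Of 8 red pulp macrophage markers, all had a positive log2 fold change in Van against Con, with a median of 0.25, and 1 was called (Vcam1, 0.46, DESeq2 adjusted p = 0.0106), and in VanLip against Con the median was 0.01. Neutrophil, T cell and B cell markers, all low, had medians of -0.54, -0.42 and -0.50 in Van against Con and -0.79, -0.43 and -0.48 in VanLip against Con, and of these Retnlg (-2.60, DESeq2 adjusted p = 0.0224) and Cd247 (-1.22, adjusted p = 0.0461) were called, both in Van. NK cell and platelet markers had medians of -0.64 and -0.55 in Van and -0.31 and -0.68 in VanLip, each against Con. Of 13 monocyte markers, 7 had a positive and 6 a negative log2 fold change in Van against Con. Only Ccr2, a receptor of classical monocytes, was called, lower in Van (165 FPKM in Con and 87.2 in Van, log2 fold change -0.83, DESeq2 adjusted p = 0.00048), whereas in VanLip it was at 201 FPKM and overlapped Con. In all 5 of the 13 had an unadjusted p under 0.05, Ccr2 included, and among them were Ly6c2 at -0.34, Fcgr1 at -0.32 and Itgam at -0.21, all lower in Van, and Treml4, a gene of nonclassical monocytes, which was higher at 0.19. The part of these cells in the Il1a difference was not tested, and in bulk libraries fewer cells of a type and less RNA per cell cannot be told apart.

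**Figure D3:**
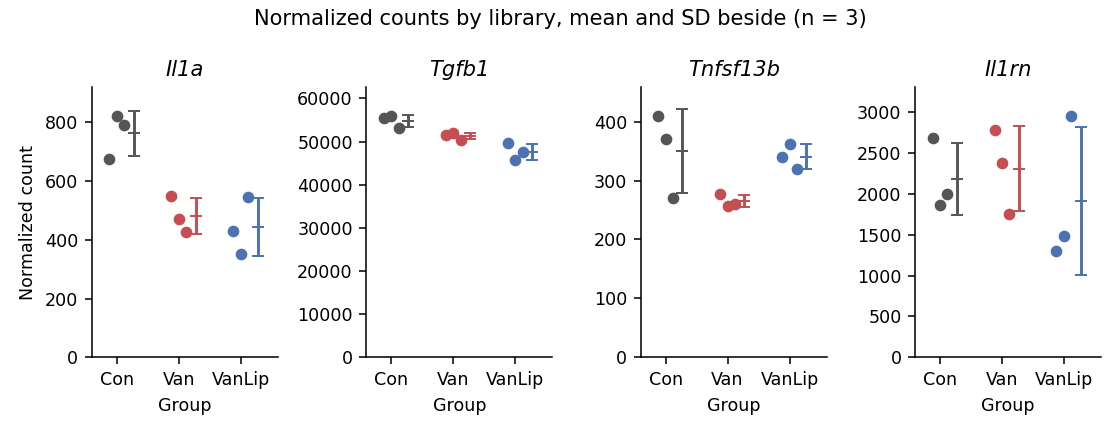
Normalized counts of Il1a, Tgfb1, Tnfsf13b and Il1rn in each library, with the group mean and SD beside the points (n = 3 mice per group). The Con points of Il1a, 674.8 to 820.6, lie above all Van and VanLip points, and 1 VanLip mouse at 2953 stands apart in Il1rn.

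Il1rn encodes the IL-1 receptor antagonist, which occupies the receptor without signalling. It is on chr2:24336853-24351494, plus strand. Counts were 2691, 1863 and 2004 in Con, 2786, 2382 and 1755 in Van and 1301, 1488 and 2953 in VanLip, so all groups overlapped and the VanLip mice had the widest spread (1914 ± 905). The log2 fold change was 0.08 in Van against Con (interval -0.64 to 0.80) and -0.19 in VanLip against Con (interval -0.91 to 0.53). VanLip against Van was -0.27 (interval -0.99 to 0.45). The contrasts with VanLip depended on single libraries. Without VanLip replicate 3, Il1rn was -0.65 in VanLip against Con (DESeq2 adjusted p = 0.0232) and -0.73 in VanLip against Van (adjusted p = 0.00663), and without VanLip replicate 1 it was 0.02 and -0.06 (adjusted p = 0.985 and 0.971).

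The balance of antagonist to agonist can be read within a library as the ratio of FPKM. Il1rn exceeded Il1a in all 9 libraries, by 2.27 to 4.19 times in Con, 4.07 to 5.16 times in Van and 2.94 to 5.30 times in VanLip, with overlap between the groups. Il1b, the inducible IL-1 of monocytes, was far more abundant, at 186, 166 and 153 FPKM in Con, Van and VanLip. It was not called in any contrast, at -0.19, -0.31 and -0.12 in Van against Con, VanLip against Con and VanLip against Van (DESeq2 adjusted p = 0.653, 0.231 and 0.733). The ratio of Il1b to Il1a was 47 ± 12.3, 64.6 ± 3.83 and 68.3 ± 25.4 (SD, n = 3) in the same groups.

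Casp1, the protease that matures IL-1 beta, was lower in both vancomycin groups. Its counts were 8451, 8278 and 8225 in Con, 6569, 6313 and 7180 in Van and 6324, 6802 and 7220 in VanLip, with every Con mouse on top. Casp1 fell by 0.31 in Van (SE 0.08, DESeq2 adjusted p = 0.00357) and by 0.29 in VanLip (adjusted p = 0.00521), each against Con. The adjusted p was 0.0834 and 0.117 with edgeR, and 0.076 without Van replicate 2 and 0.0609 without Con replicate 1, respectively, and in limma it was 0.103 to 0.196 and 0.0674 to 0.136. The signalling receptor Il1r1 was near the floor, at 0.241, 0.305 and 0.226 FPKM, and the decoy receptor Il1r2 stood at 4.86, 4.63 and 3.16 FPKM in Con, Van and VanLip, and neither was called in any contrast.

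Tnf, the central early cytokine of activated monocytes, gave no difference larger than the spread between mice. It is on chr17:35199381-35202007, minus strand. Counts were 1096, 644.4 and 773.9 in Con, 1133, 914.7 and 582.5 in Van, and 673, 977.6 and 709.8 in VanLip. The 3 groups covered nearly the same range. The log2 fold change was 0.07 in Van against Con (interval -0.44 to 0.57), -0.09 in VanLip against Con (-0.60 to 0.41) and -0.16 in VanLip against Van (-0.66 to 0.35). Adam17, the sheddase that releases TNF from the membrane, was at 37.1, 37.1 and 36.0 FPKM and had fold changes within 0.06 of 0. The TNF receptors were abundant and not called, with Tnfrsf1a at 154, 166 and 144 FPKM and Tnfrsf1b at 342, 360 and 344 FPKM in Con, Van and VanLip.

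Il6 was the rarest of the 10, and its contrasts had the widest intervals. It lies on chr5:30013114-30019981, plus strand. Counts were 149.8, 90.73 and 70.52 in Con, 131.1, 51.78 and 77.95 in Van and 123.8, 50.78 and 69.36 in VanLip. Each group held 1 mouse above 120 and the others below 91, and the groups overlapped throughout. The log2 fold change was -0.25 in Van against Con (interval -1.19 to 0.68) and -0.35 in VanLip against Con (-1.27 to 0.56). For VanLip against Van the direction depended on the unit, at -0.10 from counts and 0.15 from log2 (FPKM + 1). The IL-6 receptor chains differed between the vancomycin groups: in VanLip against Van, Il6ra fell by 0.24 (SE 0.07, DESeq2 adjusted p = 0.0182) and Il6st, which encodes the shared signalling chain gp130, fell by 0.33 (SE 0.09, adjusted p = 0.00503).

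The Il6st counts were 14790, 12020 and 12310 in Con, 15320, 15380 and 15140 in Van and 12660, 11370 and 12390 in VanLip. All Van mice were above all VanLip mice. The Il6st call held without any 1 library and gave adjusted p-values of 0.0654 in edgeR and 0.0647 to 0.145 in limma. That of Il6ra gave 0.12 with edgeR, 0.0712 to 0.132 in limma and 0.0603 with only the groups compared, and in DESeq2 0.105 and 0.108 when Van replicate 1 or 3 was left out, and 0.0691 and 0.077 when VanLip replicate 2 or 3 was.

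Il12b encodes the p40 chain shared by IL-12 and IL-23, and lies on chr11:44400063-44414033, plus strand. Its counts were 373.7, 261.5 and 258 in Con, 427.5, 156.9 and 195.6 in Van and 182, 328 and 200.5 in VanLip. The Van mice held both the highest and the lowest of the 9 values. The log2 fold changes were -0.19 (interval -0.92 to 0.54), -0.33 (-1.05 to 0.39) and -0.14 (-0.86 to 0.59) in Van against Con, VanLip against Con and VanLip against Van. The partner chains were close to undetected: Il12a was above 0 in 6 of 9 libraries and at most 0.157 FPKM, and Il23a was above 0 in 4 of 9 and at most 0.0752 FPKM, whereas Il12b was at 0.9 to 2.39 FPKM in all 9. Of those libraries with a count, 3 of the 6 for Il12a and 3 of the 4 for Il23a were VanLip libraries, the most deeply sequenced ones.

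Il27 and Ebi3 encode the chains of IL-27, a heterodimer that limits T cell responses. Il27 lies on chr7:126589010-126594941, minus strand, and overlaps the protein-coding gene Apobr on the opposite strand, and whether strand was used in counting was not given, so that reads of the pair may be shared. Counts were 1135, 930 and 976.2 in Con, 948.2, 713.9 and 1074 in Van, and 587.6, 1116 and 1037 in VanLip. VanLip replicate 1 was the lowest of the 9, and the other VanLip mice lay within the Con range. No contrast was called, with -0.15 (interval -0.61 to 0.30), -0.15 (-0.60 to 0.30) and 0.00 (-0.45 to 0.45). Ebi3 was more abundant, at 32.5 to 41 FPKM over the 9 libraries, and was not called, and the ratio of Il27 to Ebi3 was 0.301 ± 0.0299, 0.279 ± 0.0594 and 0.254 ± 0.0667 (SD, n = 3) in Con, Van and VanLip.

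Il10, which suppresses cytokine production by myeloid cells, varied among Van mice more than between groups. It is on chr1:131019845-131024974, plus strand. Counts were 180.7, 108.1 and 207.9 in Con, 310.8, 139.6 and 99.21 in Van, and 172.5, 104.3 and 199.7 in VanLip. The Con and VanLip mice covered almost the same range, and the Van mice held the highest and the lowest value. The log2 fold changes were 0.15 in Van against Con (interval -0.70 to 1.00), -0.06 in VanLip against Con (-0.90 to 0.79) and -0.21 in VanLip against Van (-1.05 to 0.63), none of them called.

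The receptor of IL-10 did differ. Il10ra, the ligand-binding chain, was at 67230, 67560 and 69200 counts in Con, 66630, 55000 and 54020 in Van and 47750, 49400 and 47500 in VanLip. Van replicate 1 was close to the Con mice, and the VanLip mice were below all others. Il10ra fell by 0.50 in VanLip against Con (SE 0.09, DESeq2 adjusted p = 1.25e-06), which held with edgeR and without any 1 library, and of the fits tried was lost only in limma with a pseudocount of 0.1 (adjusted p = 0.0569). It also fell by 0.28 in VanLip against Van (SE 0.09, adjusted p = 0.0164), where the adjusted p was 0.0537 without VanLip replicate 1, 0.055 without VanLip replicate 3, 0.0592 with only the groups compared, 0.103 with edgeR and 0.11 to 0.212 in limma, and where the fold change was -0.18, still called, without Van replicate 1. In Van against Con it was -0.22 (adjusted p = 0.148). By FPKM the groups stood at 208, 180 and 150.

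Il15, which sustains NK cells and memory T cells and is presented on its receptor chain by the cell that makes it, was narrowly spread. It is on chr8:82331632-82403222, minus strand. Counts were 1694, 1629 and 1451 in Con, 1540, 1298 and 1363 in Van, and 1343, 1449 and 1459 in VanLip. The Con mice were higher on average but the ranges overlapped. The log2 fold changes were -0.18 in Van against Con (SE 0.11, interval -0.39 to 0.02), -0.17 in VanLip against Con (interval -0.37 to 0.03) and 0.02 in VanLip against Van (-0.19 to 0.22). The presenting chain Il15ra, at 10.4, 9.97 and 11.0 FPKM in Con, Van and VanLip, was not called, and the ratio of Il15 to Il15ra was 0.843 ± 0.116, 0.778 ± 0.0483 and 0.717 ± 0.0163 (SD, n = 3).

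Tgfb1 had the smallest standard errors of the 10 and was the other cytokine called. It encodes TGF-beta 1, a regulatory cytokine secreted as a latent complex, and lies on chr7:25687002-25705077, plus strand. Counts were 55440, 55890 and 53230 in Con, 51490, 51890 and 50470 in Van and 49570, 45820 and 47530 in VanLip. The groups did not overlap, in the order Con, Van and VanLip, and the same held for FPKM, at 268 to 272, 248 to 260 and 230 to 245. Tgfb1 fell by 0.20 in VanLip against Con (SE 0.05, fold 0.868, DESeq2 adjusted p = 0.0051), while Van against Con was -0.10 (SE 0.05, adjusted p = 0.394) and VanLip against Van -0.11 (SE 0.05, unadjusted p = 0.0462, adjusted p = 0.227).

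The Tgfb1 call in VanLip against Con was lost in several fits. The adjusted p was 0.181 with edgeR, 0.0715 with only the Con and VanLip libraries in the DESeq2 fit, and 0.0678 to 0.14 with limma, and in DESeq2 0.0702 and 0.0862 when Con replicate 1 or 2 was left out, and 0.0553 when VanLip replicate 2 was. In the same contrast the libraries were deeper, 6 of 6 erythroid markers were called higher, 2 of 7 dendritic cell markers (Xcr1 and Cd209a) were called lower, and neutrophil and platelet markers had median log2 fold changes of -0.79 and -0.68, with 1 of 8 and 2 of 5 at an unadjusted p under 0.05. So had 2 of 6 B cell markers, both lower, and 3 of 13 monocyte markers, all higher (Cx3cr1 at 0.26, S100a4 at 0.30 and Treml4 at 0.23), none of them called. With the VanLip reads thinned to the depth of the other libraries, Tgfb1 was still called. In that fit 2 of the 10 cytokines were called, beside 920 of 16551 tested genes. Thinning changes only the number of reads and not how the libraries were made or sequenced, so library and group effects still cannot be told apart. The part of the marked cell types in this difference was not tested. Among genes with a mean count of at least 50, 24.1% did not overlap in Van against Con (11.4% lower), 24.5% in VanLip against Con (11.3% lower) and 28.6% in VanLip against Van (14.1% higher and 14.4% lower). Of the 10 cytokines, 2 did not overlap in each contrast, namely Il1a and Tgfb1, both lower, in the contrasts against Con, and Tgfb1, lower, and Tnfsf13b, higher, in VanLip against Van.

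Of the genes that activate or receive TGF-beta, Itgav, the integrin chain that frees it from the latent complex, fell by 0.43 in Van against Con (SE 0.13, DESeq2 adjusted p = 0.0207) and was higher by 0.37 in VanLip against Van (adjusted p = 0.0418). The Van call of Itgav was lost with edgeR (adjusted p = 0.121), in limma (0.165 to 0.317), without Con replicate 1 (0.178), Con replicate 3 (0.0603), Van replicate 2 (0.176) or Van replicate 3 (0.159). That of VanLip against Van was lost without Con replicate 3 (0.0605), Van replicate 2 (0.22), Van replicate 3 (0.198) or any 1 VanLip library (0.0538 to 0.137), with edgeR (0.0957) and in limma (0.157 to 0.285). Tgfbr2, the type II receptor, fell by 0.26 in Van against Con (SE 0.08, adjusted p = 0.0415), but in DESeq2 without any 1 of Con replicates 1, 2 and 3 and Van replicates 2 and 3 the adjusted p was 0.112, 0.0802, 0.258, 0.123 and 0.171. With the replicate number as a block it was 0.0964, with edgeR 0.156 and in limma 0.149 to 0.264. Ltbp1, a latent TGF-beta binding protein, was low, at 0.364 FPKM in Van and 0.154 in VanLip, and fell by 1.24 between them (SE 0.41, adjusted p = 0.0281), a call lost with edgeR (0.122), in limma (0.158 and 0.165, where it had a value), with thinned VanLip reads (0.0566), and without Van replicate 1 (0.122), Van replicate 2 (0.171), VanLip replicate 1 (0.0936) or VanLip replicate 2 (0.11).

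Tnfsf13b encodes BAFF, the survival factor of B cells, and lies on chr8:10006467-10039072, plus strand, overlapping the annotated transcript Gm44789 on the opposite strand. Counts were 409.2, 370.9 and 270.9 in Con, 276.7, 257.3 and 260.8 in Van, and 340.1, 361.4 and 318.8 in VanLip. All Van mice were below all VanLip mice and below 2 of the 3 Con mice. The log2 fold change was -0.41 in Van against Con (SE 0.19, fold 0.754, interval -0.77 to -0.04, unadjusted p = 0.0287, DESeq2 adjusted p = 0.251) and 0.36 in VanLip against Van (SE 0.18, fold 1.28, interval 0.01 to 0.71, unadjusted p = 0.0459, adjusted p = 0.226). Neither passed the adjusted threshold. VanLip against Con was -0.05 (interval -0.40 to 0.30). The related ligand Tnfsf13, or APRIL, was at 22.1, 20.6 and 21.3 FPKM and was not called.

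Among the receptors of BAFF, Tnfrsf13b, which encodes TACI, was called in both of these contrasts. It was at 4339, 3995 and 4181 counts in Con, 2822, 2664 and 3139 in Van and 5253, 5669 and 4491 in VanLip. The 3 groups did not overlap. Tnfrsf13b fell by 0.54 in Van against Con (SE 0.11, DESeq2 adjusted p = 8.28e-05) and rose by 0.84 in VanLip against Van (SE 0.11, adjusted p = 5.5e-13). The latter held in every alternative fit, and the former in DESeq2 without any 1 library and in edgeR but not in limma (adjusted p = 0.0526 to 0.117). TACI is also made by B cells, whose 6 marker genes summed to 16.2 to 17.7 FPKM in Con, 13.5 to 15.2 in Van and 12.6 to 17.2 in VanLip, and Tnfrsf13b alone was at 18.9, 13.6 and 23.3 FPKM. Tnfrsf13c, the BAFF receptor of B cells, was at 0.225, 0.125 and 0.17 FPKM. Of the 13 monocyte markers, 3 were called in VanLip against Van, all higher: Ccr2 (1.04, adjusted p = 7.38e-07), Cx3cr1, which is highest in nonclassical monocytes (0.43, adjusted p = 0.00264), and Ly6c2, a marker of classical ones (0.39, adjusted p = 0.0262). In the same contrast 2 of 7 dendritic cell markers were called higher (Clec9a, 0.67, and Siglech, 0.85), and 1 of 8 red pulp macrophage markers was called lower (Vcam1, -0.50), with 7 of those 8 negative. Their part in the Tnfrsf13b difference was not tested.

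The other genes of the pathway were read from lists. Of 23 other cytokines with a count, 19, 17 and 18 passed the filter on low counts in Van against Con, VanLip against Con and VanLip against Van. Of these, 2 were called in Van against Con, 0 in VanLip against Con (2 at an unadjusted p under 0.05, and 0 in edgeR) and 3 in VanLip against Van, beside 4.34%, 6.67% and 9.86% of all tested genes, and their medians were 0, 0.01 and 0.12. Clcf1, a gp130 cytokine, and Lif, another of that family, moved in opposite directions. Clcf1 was at 1400, 1260 and 1383 counts in Con, 2374, 2029 and 2065 in Van and 1238, 1355 and 981 in VanLip. It rose by 0.68 in Van against Con (SE 0.14, DESeq2 adjusted p = 8.87e-05) and fell by 0.86 in VanLip against Van (SE 0.13, adjusted p = 1.5e-08), and the second held in every alternative fit. The first was lost in limma alone (adjusted p = 0.0706 to 0.169).

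Lif was at 730.3, 860.6 and 890.8 counts in Con, 570.5, 520.9 and 452.1 in Van and 786.3, 716.4 and 604.6 in VanLip. By counts all Van mice were below all others, whereas by FPKM the 3 groups overlapped. Lif fell by 0.68 in Van against Con (SE 0.16, DESeq2 adjusted p = 0.001), a call lost in limma only (-0.29 to -0.41, adjusted p = 0.32 to 0.496), and was higher by 0.45 in VanLip against Van (SE 0.15, adjusted p = 0.0383), which did not pass with edgeR (0.102), without Con replicate 2 (0.063), Con replicate 3 (0.0565), Van replicate 2 (0.123), Van replicate 3 (0.199), VanLip replicate 1 (0.213) or VanLip replicate 2 (0.136), with only the groups compared (0.0658), with the replicate block (0.0974) or in limma (0.16 to 0.23, adjusted p = 0.491 to 0.664). Gdf15, a stress-induced relative of TGF-beta, fell by 0.82 in VanLip against Van (SE 0.26, adjusted p = 0.0222), and was lost with edgeR (0.114), in limma (0.0723 to 0.165), without Van replicate 1 (0.109), Van replicate 2 (0.172), VanLip replicate 1 (0.0686) or VanLip replicate 2 (0.129).

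**Figure D4:**
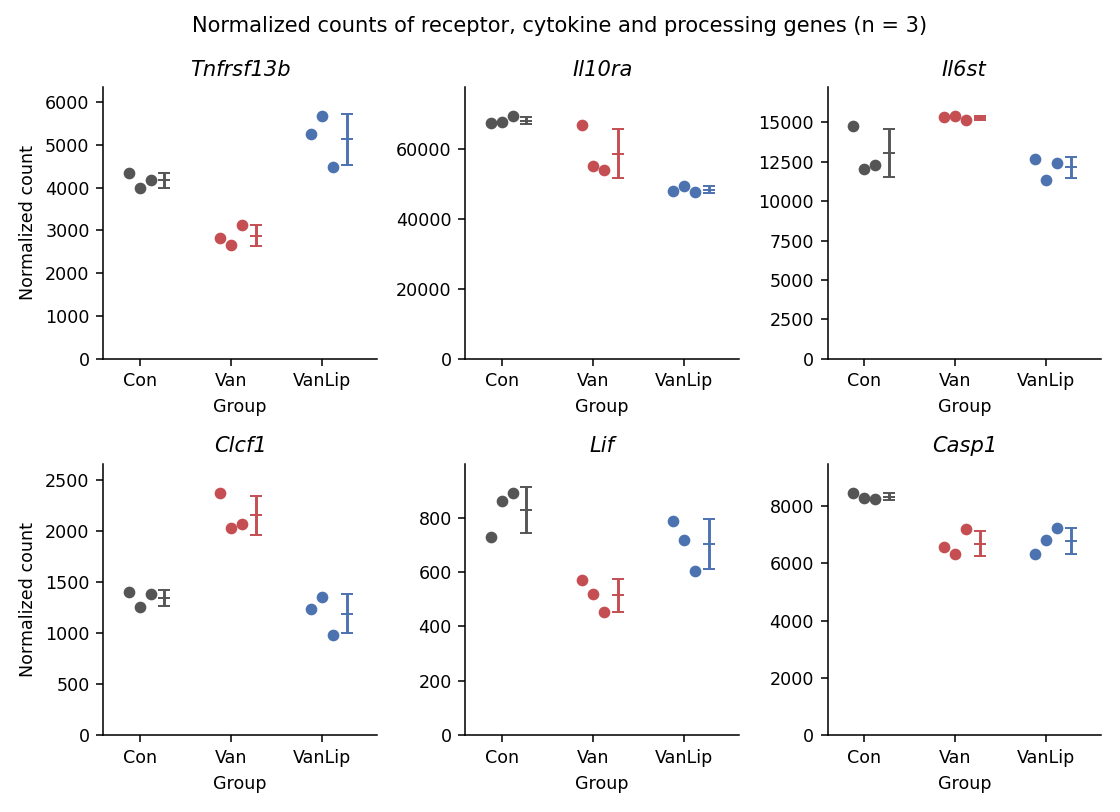
Normalized counts in each library of the receptors Tnfrsf13b, Il10ra and Il6st, the cytokines Clcf1 and Lif, and the protease Casp1, with the group mean and SD beside the points (n = 3 mice per group). In Tnfrsf13b the Van points, 2664 to 3139, lie below all others, in Clcf1 the Van points, 2029 to 2374, lie above all others, and in Il10ra the VanLip points, 47500 to 49400, lie lowest.

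By list, and beside the 4.34%, 6.67% and 9.86% of all tested genes called in the 3 contrasts, 2 of 20 receptor genes were called in Van against Con, both lower (Tgfbr2 and Tnfrsf13b). In VanLip against Con 1 was called, lower (Il10ra), and in VanLip against Van 4 were, Tnfrsf13b higher and Il6ra, Il6st and Il10ra lower. Their median log2 fold change was 0.04, -0.11 and -0.06 in these contrasts. Of 15 genes of processing and release, 14 of which could be called in VanLip against Con, 2 were lower in Van than in Con (Casp1 and Itgav), 1 was lower in VanLip than in Con (Casp1), and in VanLip against Van 1 was higher (Itgav) and 1 lower (Ltbp1), with medians of -0.07, -0.21 and -0.03. In edgeR, 1 receptor was called in each contrast and 0 of the processing genes, beside 189, 289 and 727 of 25441 genes in the 3 contrasts.

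Of 12 genes of messenger RNA decay, 1 was called in Van against Con, 2 in VanLip against Con and 1 in VanLip against Van (background 4.34%, 6.67% and 9.86%), with medians of 0, -0.10 and -0.06. Zfp36, which encodes tristetraprolin, was at 1090, 930 and 1030 FPKM in Con, Van and VanLip, and was not called (-0.24, -0.11 and 0.14). Hnrnpd, which encodes AUF1, fell by 0.32 in Van against Con (SE 0.09, DESeq2 adjusted p = 0.00919) and was higher by 0.42 in VanLip against Van (SE 0.09, adjusted p = 6.94e-05). The second held with edgeR and without any 1 library but not in limma (0.21 to 0.22, adjusted p = 0.276 to 0.435), and the first was lost with edgeR (0.0936), in limma (0.378 to 0.561), without Con replicate 2 (0.0524), Con replicate 3 (0.111) or Van replicate 2 (0.0939). In VanLip against Con, Rc3h2, a Roquin paralogue, fell by 0.29 (adjusted p = 0.0185), a call lost with edgeR (0.153), in limma (0.225 to 0.351) and without any 1 of the Con mice (0.0521 to 0.168), VanLip replicate 1 (0.0565) or VanLip replicate 2 (0.139). Tia1, a translational repressor, rose by 0.34 (adjusted p = 0.0116), a call lost with edgeR (0.0758), in limma (0.0649 to 0.122) and without Con replicate 3 (0.107) or VanLip replicate 1 (0.0783). Tnf, Il27 and Tnfsf13b, whose AU-rich sites are printed above, were not called in any contrast.

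Within groups, single mice were high for several cytokines at once. Con replicate 1 was the highest of its group for 7 of the 10 cytokines, and Van replicate 1 for 8 of 10, all but Il27 and Tgfb1, and the lowest for 0. Relative to the Con mean, Van replicate 1 reached a log2 value of 0.91 for Il10 and 0.52 for Il12b. In VanLip, replicates 2 and 3 were each highest for 4 cytokines. Con replicate 3, Van replicates 2 and 3 and VanLip replicate 1 were each the lowest of their group for 5. The same shares over all genes were not computed, so a trait of a library cannot be told apart from one of the cytokines. Replicate numbers did not pair mice across groups.

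**Figure D5:**
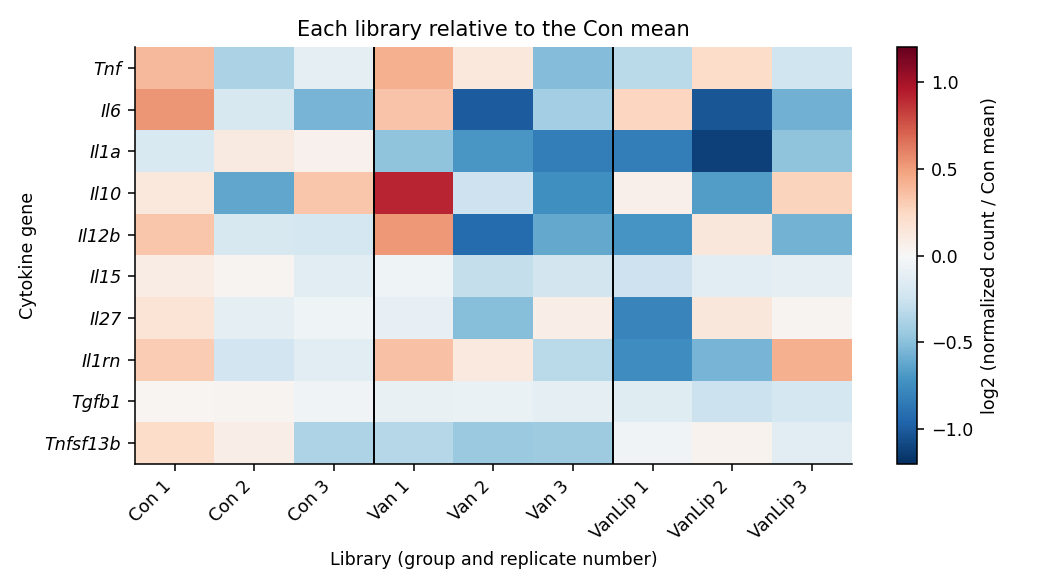
Colour scale of log2 normalized count relative to the Con mean for the 10 cytokine genes (rows) in the 9 libraries (columns, 3 mice per group), red above and blue below the Con mean. The Il1a row is blue in all 6 Van and VanLip libraries, and Van replicate 1 is the reddest cell of the Il10 row at 0.91.

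Across the 9 libraries the cytokines resembled one another to different degrees, as Pearson correlations of log2 counts that share the group differences and the library sizes. The closest pairs were Il1a and Tgfb1 at 0.81 and Il12b and Il15 at 0.78, followed by Tnf and Il12b at 0.68. Over the 13502 other genes with a mean count of at least 50, the best match was Atr for Il1a at 0.99, Rnf150 for Tgfb1 at 0.97, Mtl5 for Tnfsf13b at 0.95, Cyp4f16 for Il1rn at 0.94, Cenpw for Tnf at 0.93, Ppp2r5c for Il12b at 0.93 and Sult6b1 for Il15 at 0.90. For Il6 and Il10 it was a gene with a clone name, WI1-1010L24.1 at 0.92 and RP23-339I6.1 at 0.90. The match of Il27 was Igkj1 at 0.94, but with a Spearman rho of 0.33. These are the highest of many values over 9 points and are given as a description only.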

How the data were processed

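RNA was measured in 9 libraries, 3 mice per group, grouped by the sample titles. Per the labels and methods, the authors made stranded messenger RNA libraries, aligned reads with HISAT2 2.2.1 to GRCm38, sorted them with SAMtools 1.9 and deposited FPKM per gene from StringTie 2.1.3. The authors also deposited expected counts, obtained from StringTie output with tximport, and used DESeq2 1.38.3. The annotation release and the strand setting of counting are not given in the sources used here. Expected counts carry the assumed read length, and their commonest low value was higher in the VanLip libraries, although 1 read length of 100 bases is stated for all.

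Expected counts were rounded and tested with the two-sided Wald test of DESeq2 1.42.0 in R 4.3.3, all 9 libraries, group as the only term, with Benjamini-Hochberg adjustment over those of the 25441 fitted genes that passed its default filtering. Alternatives were edgeR 4.0.16 (quasi-likelihood), TMM library sizes, at least 10 counts in at least 3 libraries, a fit of just the contrasted groups, the replicate number as a block, counts divided by the count of 1 read, VanLip reads thinned to the depth of the others, each library left out in turn, and limma 3.58.1 on quantile-normalized log2 (FPKM + 1), on log2 (FPKM + 0.1) and on genes whose mean FPKM reached 1. The edgeR fit had no filter on low counts and adjusted over 25441 genes. The limma fits adjusted over 26108, 26108 and 11710 genes in the order given. Positions and 3′ UTRs came from GENCODE M21.

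The cytokines and all gene lists were chosen with earlier results of these data known. Genes named were the 10 cytokines, list genes called in any contrast (adjusted p no higher than 0.05), and the 1 gene most alike to each cytokine over the 9 libraries. A fixed set of partner chains, receptors, a sheddase and the related cytokines Il1b and Tnfsf13 was named whatever the values. Zfp36, Ccr2 and the members of the marker lists were named in addition, after their values were seen, and the alternatives for list genes were added after seeing the data. Of the other cytokines, Ifng had no count and Il36g no row.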

Additional observations from a re-analysis of the deposited data

How the results depend on the processing

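Across the alternatives the number of genes called moved most in edgeR and limma. These changed the test, the normalization and the number of genes adjusted over together, and limma also the unit. In Van against Con 803 genes were called, with 189 in edgeR and 92, 17 and 90 in limma (pseudocount 1, pseudocount 0.1 and mean FPKM of at least 1), and 425 to 913 without 1 library. The lowest of these were 425 and 487 when Van replicate 2 or 3 was left out, and 433 and 501 when Con replicate 3 or 2 was. Cytokines called were 1, with 0 in edgeR and in each limma fit and 0 to 1 without 1 library. In VanLip against Con 1104 genes were called, with 289 in edgeR, 237, 168 and 339 in limma and 606 to 1276 without 1 library. Cytokines called were 2, with 0 in edgeR, 1 with only the groups compared, 0, 0 and 1 in limma, and 1 to 3 without 1 library. In VanLip against Van 1777 genes were called, with 727 in edgeR, 688, 516 and 829 in limma and 1142 to 1666 without 1 library. Cytokines called were 0, and 0 to 1 without 1 library. TMM library sizes moved the split from 494 higher and 610 lower to 657 and 500 in VanLip against Con, and from 826 and 951 to 1013 and 809 in VanLip against Van. The cause was not tested beyond the construction of each fit.

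Replicate numbers did not pair the mice: correlations of deviations between same-numbered mice were -0.06 to 0.12. With the replicate block, 932, 1146 and 1644 genes and 1, 2 and 0 cytokines were called.

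Il1a in both contrasts against Con and Tgfb1 in VanLip against Con kept their sign in all alternatives. Cytokines that were not called changed sign as follows. Il6 in VanLip against Van was 0.15 and 0.38 in limma with pseudocounts of 1 and 0.1. Il27 in VanLip against Van was -0.01 with the replicate block, and -0.01, -0.02 and -0.01 in limma. Without 1 library, Van against Con ranged from -0.16 to 0.31 for Tnf, -0.68 to 0.11 for Il6, -0.47 to 0.45 for Il10, -0.76 to 0.07 for Il12b and -0.08 to 0.25 for Il1rn. VanLip against Con ranged from -0.28 to 0.15 for Tnf, -0.79 to 0.01 for Il6, -0.29 to 0.17 for Il10, -0.32 to 0.09 for Il27, -0.65 to 0.02 for Il1rn and -0.20 to 0.08 for Tnfsf13b. VanLip against Van ranged from -0.38 to 0.07 for Tnf, -0.54 to 0.32 for Il6, -0.31 to 0.02 for Il1a, -0.51 to 0.41 for Il10, -0.45 to 0.43 for Il12b, -0.04 to 0.09 for Il15 and -0.17 to 0.24 for Il27.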
